A study of Mus musculus with 16 samples.

Results

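Eph receptors and ephrins were followed in mouse embryonic stem (ES) cells by taking every array probe annotated to Epha1, Epha2, Epha4, Ephb2, Ephb3, Ephb4, Efna1, Efna4, Efnb1 or Efnb2. Of these 10 genes 9 had a probe, 13 probes in all, out of 25697 probes for 16593 genes. Ephb2 had none and was not analysed here. The study asked how a loss of heparan sulfate sulfation compares with a block of FGF receptors. Its 4 groups were wild-type CCE cells given 20 mM sodium chlorate, which inhibits sulfation, for 24 h, wild-type CCE cells given 5 µM of the FGF receptor inhibitor SU5402 for 24 h, Ndst1/2-/- cells without treatment, and untreated wild-type CCE cells. Ndst1 and Ndst2 encode the enzymes that start the sulfation of heparan sulfate. All cells grew on gelatin with serum and LIF. Each inhibitor was used at 1 dose and 1 time. The labels name 1 Ndst1/2-/- line and give neither its number of clones nor its parent line, so genotype and other differences between lines cannot be told apart in these data. No probe was annotated to Ndst1 or Ndst2, so the deletion was not checked here.

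Eph receptors are receptor tyrosine kinases, and ephrins are their ligands on the surface of neighbouring cells. Ephrin-A proteins are held by a lipid anchor and mostly bind EphA receptors, whereas ephrin-B proteins span the membrane and mostly bind EphB receptors. Contact between cells signals forward into the receptor-bearing cell and in reverse into the ephrin-bearing cell, and it controls adhesion, repulsion and the sorting of cells into separate groups.

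Every group had 3 cultures, and culture 3 was measured on 2 arrays that were averaged, which gave 12 cultures on 16 arrays. Levels are log2 of background-corrected, quantile-normalized bead intensity with an offset of 16, and a probe counted as detected on an array at a detection p under 0.01. Arrays detected 12022 to 12821 probes. The ES cell genes Pou5f1, Nanog, Sox2, Zfp42, Klf4, Esrrb and Tdgf1 were detected on every array of every group, and their summed background-corrected intensity was 24065 to 24526 with chlorate, 22660 to 23661 with SU5402, 25474 to 26658 in Ndst1/2-/- cells and 18590 to 19746 in untreated cells. Of 8 fibroblast markers 6 were undetected in the wild-type groups and all 8 in Ndst1/2-/- cells, with sums of 89.1 to 99.0 with chlorate, 81.1 to 101 with SU5402, 43.6 to 50.4 in Ndst1/2-/- cells and 121 to 138 in untreated cells. Of 7 trophectoderm markers Elf5 and Hand1 were undetected in every group, and Cdx2 and Krt18 also in Ndst1/2-/- cells. Their sum was 4747 to 4945 with chlorate, 5063 to 5297 with SU5402, 1602 to 1723 in Ndst1/2-/- cells and 2321 to 2459 in untreated cells. Primitive endoderm markers summed to 442 to 486 with chlorate, 423 to 464 with SU5402, 168 to 202 in Ndst1/2-/- cells and 339 to 368 in untreated cells. Sox17 and Foxa2 were undetected in every group, Gata4 also with chlorate, and Gata4, Gata6 and Pdgfra also in Ndst1/2-/- cells. Mesendoderm markers summed to 290.4 to 328 with chlorate, 261 to 269 with SU5402, 154 to 158 in Ndst1/2-/- cells and 128 to 141 in untreated cells. Mixl1 was undetected in every group, and Fgf8 also in Ndst1/2-/- cells. Neuroectoderm markers summed to 344 to 399 with chlorate, 398 to 449 with SU5402, 240.1 to 263 in Ndst1/2-/- cells and 331 to 384 in untreated cells. Sox1 and Pax6 were undetected in every group, and Tubb3 also with SU5402. The part of these shifts in the Eph and ephrin results was not tested. Fewer cells of a type and less RNA per cell cannot be told apart in such bulk samples.

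The promoters of the 4 genes with called changes against untreated cells under all 3 conditions are shown as the 250 bases before the transcription start, from RefSeq on GRCm38.p6. Capitals mark matches on either strand to 5 searched motifs, which were the ETS motif CCGGAAGT, the AP-1 motif TGACTCA, the CRE TGACGTCA, the TCF/LEF motif CTTTGA and the GC box GGGCGG. The windows lie at chr6:42373269-42373518 on the minus strand for Epha1, chr4:141300971-141301220 on the plus strand for Epha2, chr3:89338029-89338278 on the minus strand for Efna4 and chrX:99135811-99136060 on the plus strand for Efnb1.
Epha1: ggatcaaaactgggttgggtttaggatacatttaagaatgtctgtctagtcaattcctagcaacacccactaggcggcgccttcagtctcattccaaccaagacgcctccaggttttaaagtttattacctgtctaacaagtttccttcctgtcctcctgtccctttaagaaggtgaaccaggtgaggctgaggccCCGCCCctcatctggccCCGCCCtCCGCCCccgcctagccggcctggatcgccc
Epha2: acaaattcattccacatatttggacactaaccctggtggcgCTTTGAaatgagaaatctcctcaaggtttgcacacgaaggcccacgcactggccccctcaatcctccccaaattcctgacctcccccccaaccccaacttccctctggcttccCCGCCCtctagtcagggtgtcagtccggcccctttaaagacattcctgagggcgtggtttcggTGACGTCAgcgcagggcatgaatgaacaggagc
Efna4: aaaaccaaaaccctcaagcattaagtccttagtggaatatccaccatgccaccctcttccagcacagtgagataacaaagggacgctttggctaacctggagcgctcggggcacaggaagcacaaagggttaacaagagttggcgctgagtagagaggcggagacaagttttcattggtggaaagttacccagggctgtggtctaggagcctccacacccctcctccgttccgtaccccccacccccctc
Efnb1: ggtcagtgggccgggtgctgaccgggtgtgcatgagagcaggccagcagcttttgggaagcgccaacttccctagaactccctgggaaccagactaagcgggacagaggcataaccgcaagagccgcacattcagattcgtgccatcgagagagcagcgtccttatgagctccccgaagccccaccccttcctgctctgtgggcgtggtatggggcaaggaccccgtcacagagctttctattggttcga
The Epha1 window held the GC box 3 times, in its last part before the start. The Epha2 window held 1 GC box, 1 TCF/LEF match and 1 CRE, and the Efna4 and Efnb1 windows held none of the 5 motifs. Over the 11 windows found for the 10 genes, the GC box was in 8, the CRE and the TCF/LEF motif in 1 each, and the ETS and AP-1 motifs in none. Of 32851 promoter windows of the same length 32.7% held the GC box, 13.8% the TCF/LEF motif, 4.46% the AP-1 motif, 2.88% the ETS motif and 1.55% the CRE. A match of letters is a description and not a binding site.

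Of the 13 probes 9 were tested, for Epha1 (3 probes), Epha2, Ephb4, Efna4 (2 probes), Efnb1 and Efnb2. A probe entered the test when 3 or more of the 12 cultures had a mean detection p under 0.01. Epha4 was detected on 1 chlorate and 1 SU5402 array, and Efna1 likewise on 1 of each, while Ephb3 was detected on 0 of 16 arrays. These 3 genes and the remaining Epha1 probe were left untested.

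Epha1, an EphA receptor, showed the widest range of the family. Its brightest probe (ILMN_2972748) read 6.15, 6.17 and 5.89 log2 units in the 3 chlorate cultures, 6.23, 6.23 and 6.34 with SU5402, 4.37, 4.25 and 4.31 in Ndst1/2-/- cells, and 7.77, 7.83 and 7.91 in untreated cells. Untreated cultures were highest, both inhibitors lay well below them and close to each other, and Ndst1/2-/- cultures lay lowest, with no overlap between any of the groups. In deposited intensity, before any correction, the same probe read 88.0 to 111 with chlorate, 104 to 125 with SU5402, 38.8 to 49.1 in Ndst1/2-/- cells and 255 to 299.9 in untreated cells. The Ndst1/2-/- values were not above background on any of 4 arrays.

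Relative to untreated cells Epha1 fell 3.41-fold with chlorate (log2 fold change -1.77 ± 0.08, moderated SE, with 3 cultures in each group; adjusted p = 9.63e-09 by limma with Benjamini-Hochberg adjustment). It fell 2.97-fold with SU5402 (-1.57 ± 0.08; limma with Benjamini-Hochberg, adjusted p = 5.08e-08). In Ndst1/2-/- cells it was at least 6.61-fold lower than in untreated cells (limma with Benjamini-Hochberg, adjusted p = 2.57e-12). This bound sets the untreated mean against, on each Ndst1/2-/- array, the higher of the lowest detected signal and the probe's own signal. The fitted difference to this undetected level was -3.53 log2 units. The p-values beside this and the later Epha1 bounds belong to such fitted differences and do not test the bounds. Against the inhibitors the Ndst1/2-/- level was at least 1.94-fold lower than with chlorate (limma with Benjamini-Hochberg, adjusted p = 1.44e-09) and at least 2.23-fold lower than with SU5402 (adjusted p = 5.35e-10 by the same test).

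The other Epha1 probes were dimmer and gave the same order of untreated over treated cells. The second (ILMN_2633996) read 4.72, 5.07 and 4.93 with chlorate, 5.13, 5.30 and 5.20 with SU5402, 4.48, 4.30 and 4.42 in Ndst1/2-/- cells, and 6.70, 6.59 and 6.47 in untreated cells. It was detected on 2 of 4 chlorate, 3 of 4 SU5402, 0 of 4 Ndst1/2-/- and 4 of 4 untreated arrays. It fell with chlorate (-1.68 ± 0.09 SE; limma with Benjamini-Hochberg, adjusted p = 6.92e-08) and with SU5402 (-1.38 ± 0.09; adjusted p = 6.48e-07), and it was at least 2.78-fold lower in Ndst1/2-/- cells (adjusted p = 6.91e-10). The third (ILMN_2686924) ranged 4.66 to 5.15 with chlorate, 4.56 to 4.87 with SU5402, 4.58 to 4.71 in Ndst1/2-/- cells and 5.22 to 5.40 in untreated cells. It was detected on all 4 untreated arrays, 1 chlorate array and no others, so it entered the test through the untreated group and its difference carries no weight of its own. The fourth (ILMN_2749705), which was not tested, ranged 4.34 to 4.46 with chlorate, 4.41 to 4.55 with SU5402, 4.20 to 4.33 in Ndst1/2-/- cells and 4.93 to 5.31 in untreated cells.

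**Figure D1:**
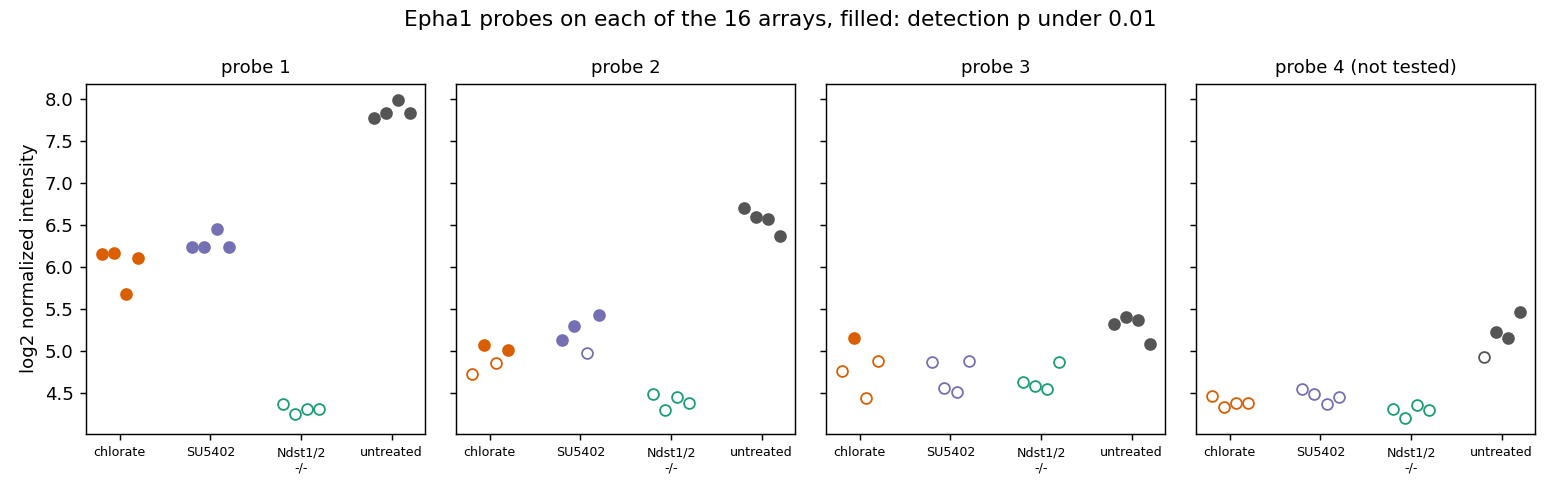
Log2 normalized intensity of the 4 Epha1 probes on each of the 16 arrays, 4 per group, in the order chlorate, SU5402, Ndst1/2-/- and untreated. Probe 1 is ILMN_2972748, probe 2 is ILMN_2633996, probe 3 is ILMN_2686924 and probe 4 is ILMN_2749705. Filled points were detected at p under 0.01 and open points were not. Probe 1 was detected on every wild-type array and on 0 of 4 Ndst1/2-/- arrays.

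Epha2, an EphA receptor of epithelia and ES cells, moved less than Epha1 in every comparison with untreated cells. It read 7.77, 8.003 and 8.04 with chlorate, 8.27, 8.46 and 8.26 with SU5402, 8.36, 8.39 and 8.27 in Ndst1/2-/- cells, and 8.79, 8.87 and 8.80 in untreated cells. Every culture of the 3 conditions lay below every untreated culture, and chlorate cultures lay lowest. Epha2 fell 1.85-fold with chlorate (-0.89 ± 0.08 SE; limma with Benjamini-Hochberg, adjusted p = 4.90e-06). It fell with SU5402 (-0.49 ± 0.08 SE; limma with Benjamini-Hochberg, adjusted p = 0.000826) and in Ndst1/2-/- cells (-0.49 ± 0.08; adjusted p = 0.000172). Epha2 was higher in Ndst1/2-/- cells than with chlorate (0.40 ± 0.08 SE; limma with Benjamini-Hochberg, adjusted p = 0.000937). The Ndst1/2-/- and SU5402 levels differed by 0.00 log2 units (95% interval -0.17 to 0.18; limma with Benjamini-Hochberg, adjusted p = 0.963).

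Ephb4, the receptor that binds ephrin-B2 in blood vessels, was close to background and was detected on 3 of 4 untreated arrays and on all arrays of the other groups. It read 5.69, 5.45 and 5.35 with chlorate, 5.63, 5.54 and 5.31 with SU5402, 5.71, 5.91 and 5.86 in Ndst1/2-/- cells, and 5.10, 5.26 and 5.36 in untreated cells. Only the Ndst1/2-/- cultures lay wholly above the untreated range. Ephb4 rose in Ndst1/2-/- cells (log2 fold change 0.59 ± 0.11 SE; limma with Benjamini-Hochberg, adjusted p = 0.000356). The difference from untreated cells was 0.25 with chlorate (95% interval 0.02 to 0.49; limma with Benjamini-Hochberg, adjusted p = 0.0952) and 0.25 with SU5402 (0.02 to 0.48; adjusted p = 0.109), neither of which was called. Without SU5402 replicate 3 the SU5402 difference was 0.34 (limma with Benjamini-Hochberg, adjusted p = 0.0495). Ndst1/2-/- cells were also above chlorate (0.33 ± 0.11 SE; limma with Benjamini-Hochberg, adjusted p = 0.0170) and above SU5402 (0.33 ± 0.11; adjusted p = 0.0165). These 2 calls did not hold when any of several single cultures was left out. The first was lost without chlorate replicate 2 (0.31, adjusted p = 0.0521 by limma with Benjamini-Hochberg) or chlorate replicate 3 (0.26, adjusted p = 0.0774). It was also lost without Ndst1/2-/- replicate 2 (0.29, adjusted p = 0.0607) or Ndst1/2-/- replicate 3 (0.31, adjusted p = 0.0503). The second was lost without Ndst1/2-/- replicate 2 (0.29, adjusted p = 0.0594) or SU5402 replicate 3 (0.25, adjusted p = 0.0794 by the same test).

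Among the ligands, Efna4 encodes a lipid-anchored ephrin and was higher in all 3 conditions. Its brighter probe (ILMN_1217493) read 7.57, 7.48 and 7.27 with chlorate, 7.17, 7.13 and 7.36 with SU5402, 7.76, 7.71 and 7.78 in Ndst1/2-/- cells, and 6.83, 7.003 and 6.91 in untreated cells. Its other probe (ILMN_2691352) read 6.67, 6.84 and 6.82 with chlorate, 6.56, 6.72 and 6.62 with SU5402, 7.39, 7.36 and 7.25 in Ndst1/2-/- cells, and 6.38, 6.22 and 6.20 in untreated cells. On both probes every culture of each condition lay above the untreated range and Ndst1/2-/- cultures lay highest.

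On the brighter Efna4 probe the increase was 0.53 ± 0.08 log2 units with chlorate (SE; limma with Benjamini-Hochberg, adjusted p = 0.000500), 0.31 ± 0.08 with SU5402 (adjusted p = 0.0194) and 0.84 ± 0.08, or 1.78-fold, in Ndst1/2-/- cells (adjusted p = 2.18e-06). On the other probe it was 0.51 ± 0.07 with chlorate (SE; limma with Benjamini-Hochberg, adjusted p = 0.000239), 0.37 ± 0.07 with SU5402 (adjusted p = 0.00334) and 1.06 ± 0.07, or 2.09-fold, in Ndst1/2-/- cells (adjusted p = 6.57e-08). The SU5402 call of the brighter probe was lost without untreated replicate 1 (0.27, adjusted p = 0.0719), untreated replicate 3 (0.30, adjusted p = 0.0529) or SU5402 replicate 3 (0.24, adjusted p = 0.0818; limma with Benjamini-Hochberg). Efna4 was also higher in Ndst1/2-/- cells than with chlorate (0.31 on the brighter probe, adjusted p = 0.00748, and 0.55 on the other, adjusted p = 3.20e-05, by limma with Benjamini-Hochberg) and than with SU5402 (0.53, adjusted p = 0.000151, and 0.70, adjusted p = 4.20e-06).

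Efnb1, an X-linked gene for a transmembrane ephrin, was called higher with both inhibitors and lower in the mutant. It read 7.34, 7.43 and 7.23 with chlorate, 6.997, 6.79 and 6.91 with SU5402, 5.63, 5.58 and 5.44 in Ndst1/2-/- cells, and 6.32, 6.05 and 6.09 in untreated cells. The 4 groups did not overlap: chlorate cultures were highest, SU5402 cultures next, untreated cultures below them and Ndst1/2-/- cultures lowest. Efnb1 rose 2.27-fold with chlorate (1.18 ± 0.09 SE; limma with Benjamini-Hochberg, adjusted p = 8.17e-07) and 1.68-fold with SU5402 (0.75 ± 0.09; adjusted p = 5.78e-05). It fell 1.52-fold in Ndst1/2-/- cells (-0.60 ± 0.09 SE; limma with Benjamini-Hochberg, adjusted p = 5.41e-05). The direct comparisons put Ndst1/2-/- cells 3.44-fold below chlorate (-1.78 ± 0.09 SE; limma with Benjamini-Hochberg, adjusted p = 3.17e-09) and 2.55-fold below SU5402 (-1.35 ± 0.09; adjusted p = 4.30e-08).

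Efnb2, the transmembrane ligand of Ephb4, was not called in any comparison with untreated cells under the main settings. Of 26 alternatives 8 called it with chlorate, 7 in Ndst1/2-/- cells and 1 with SU5402, so its place near the threshold is unsettled. It read 6.10, 6.51 and 6.62 with chlorate, 6.28, 6.27 and 6.48 with SU5402, 5.72, 5.78 and 5.99 in Ndst1/2-/- cells, and 6.10, 6.07 and 6.13 in untreated cells. Its difference from untreated cells was 0.31 with chlorate (95% interval 0.05 to 0.57; limma with Benjamini-Hochberg, adjusted p = 0.0687), 0.25 with SU5402 (-0.01 to 0.51; adjusted p = 0.155) and -0.27 in Ndst1/2-/- cells (-0.53 to -0.01; adjusted p = 0.0653). The first chlorate culture sat within the untreated range and the other 2 above it; without chlorate replicate 1 the chlorate difference was 0.47 (limma with Benjamini-Hochberg, adjusted p = 0.00359), the SU5402 difference was 0.25 (adjusted p = 0.0499) and the Ndst1/2-/- difference was -0.27 (adjusted p = 0.0139). The Ndst1/2-/- difference also passed without chlorate replicate 3 (-0.27, adjusted p = 0.0470) and without Ndst1/2-/- replicate 3 (-0.35, adjusted p = 0.0351; limma with Benjamini-Hochberg). Directly compared, Efnb2 was lower in Ndst1/2-/- cells than with chlorate (-0.58 ± 0.12 SE; limma with Benjamini-Hochberg, adjusted p = 0.00101) and than with SU5402 (-0.52 ± 0.12; adjusted p = 0.00229).

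**Figure D2:**
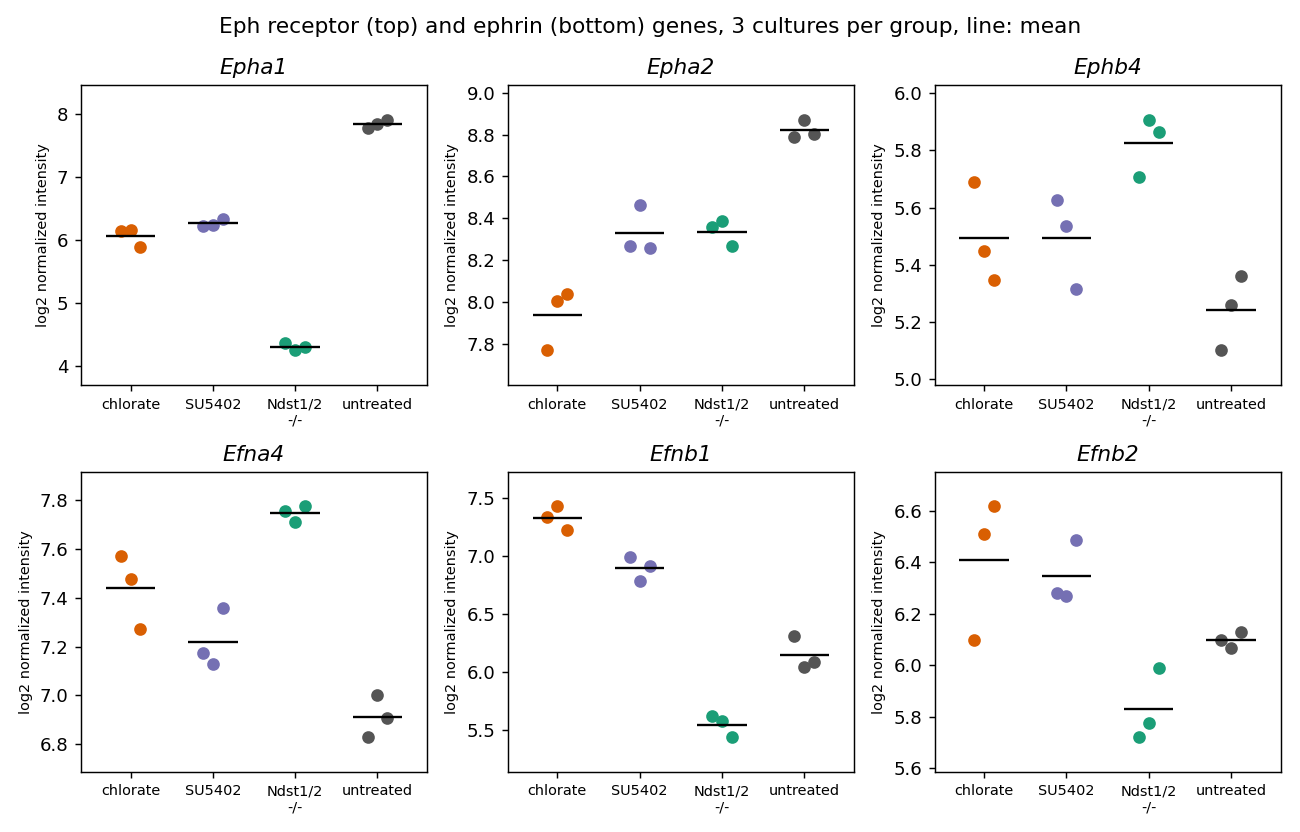
Log2 normalized intensity of the brightest probe of each tested gene in the 3 cultures per group (points; line, mean), in the order chlorate, SU5402, Ndst1/2-/- and untreated, each panel with its own axis. Epha1 and Epha2 are highest in untreated cells, Efna4 is lowest there, and Efnb1 lies above untreated cells with either inhibitor and below them in Ndst1/2-/- cells.

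Over the 9 tested probes 3 were higher and 4 lower with chlorate than in untreated cells, where 14.2% of all 13377 tested probes were higher and 14.2% lower (28.4% in either direction). With SU5402 likewise 3 were higher and 4 lower, where 11.9% of all tested probes were higher and 11.6% lower (23.5% in either direction). In Ndst1/2-/- cells 3 were higher and 5 lower, where 30.4% of all tested probes were higher and 32.2% lower (62.7% in either direction), so that most members were called in a comparison in which most probes were. The third Epha1 probe (ILMN_2686924), which passed the filter only through the untreated group, is among the lower ones of each of these comparisons. Without it 8 probes were left, of which 3 were higher and 3 lower with chlorate, 3 higher and 3 lower with SU5402, and 3 higher and 4 lower in Ndst1/2-/- cells. By gene this was 2 higher (Efna4, Efnb1) and 2 lower (Epha1, Epha2) of 6 with either inhibitor, and 2 higher (Ephb4, Efna4) and 3 lower (Epha1, Epha2, Efnb1) in Ndst1/2-/- cells. The median log2 fold change of the 9 probes was 0.25 with chlorate against -0.01 over all tested probes, 0.25 with SU5402 against -0.01, and -0.49 in Ndst1/2-/- cells against 0.00. Without that Epha1 probe the medians were 0.28, 0.25 and -0.38. The 3 comparisons share the untreated cultures, and several probes belong to 1 gene, so these counts are no set of independent results. All 9 probes, that Epha1 probe included, differed among the groups by the moderated F-test (limma with Benjamini-Hochberg), as did 69% of all tested probes.

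**Figure D3:**
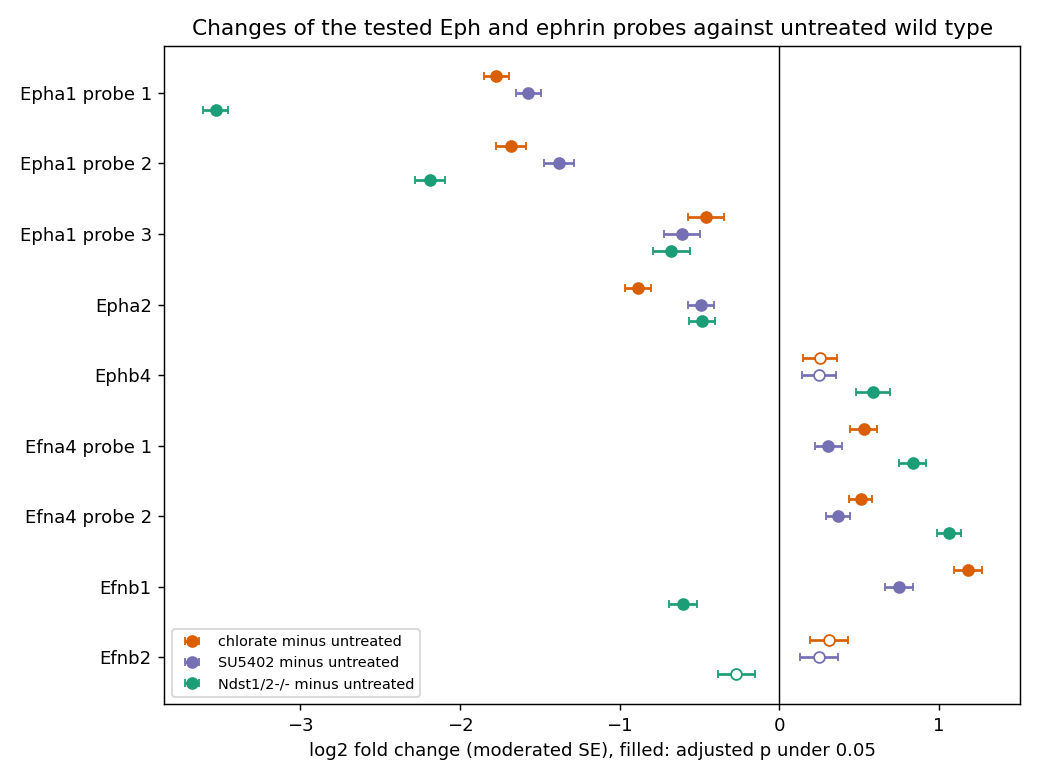
Log2 fold change against untreated wild-type cells for the 9 tested probes (points; bars, moderated SE; 3 cultures per group), with chlorate above SU5402 above Ndst1/2-/- for each probe. Epha1 probes 1 to 3 are ILMN_2972748, ILMN_2633996 and ILMN_2686924, and Efna4 probes 1 and 2 are ILMN_1217493 and ILMN_2691352. Filled points passed an adjusted p under 0.05. The Epha1 points of Ndst1/2-/- cells are fitted differences to a level that was not above background. Ephb4 with either inhibitor and Efnb2 under all 3 conditions did not pass.

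The arrays fell into 2 sets by mean intensity, set A with replicate 1 and 1 array of replicate 3 of each group (412 to 454) and set B with replicate 2 and the other array of replicate 3 (369 to 400). Within sets A and B the brightest Epha1 probe differed from untreated cells by -1.97 and -1.70 log2 units with chlorate and by -1.54 and -1.60 with SU5402, and it was undetected on the Ndst1/2-/- arrays of both sets. Efnb1 differed by 1.05 and 1.29 with chlorate, by 0.72 and 0.81 with SU5402, and by -0.70 and -0.53 in Ndst1/2-/- cells. Epha2 differed by -0.90 and -0.81 with chlorate, by -0.53 and -0.47 with SU5402, and by -0.45 and -0.55 in Ndst1/2-/- cells. The brighter Efna4 probe differed by 0.48 and 0.49 with chlorate, by 0.38 and 0.30 with SU5402, and by 0.88 and 0.81 in Ndst1/2-/- cells, of which the SU5402 difference passed in neither set (adjusted p = 0.109 and 0.0946 by limma with Benjamini-Hochberg).

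The inhibitors differed from each other for 2 of the 9 probes. With SU5402 1 probe was higher than with chlorate, where 1.04% of all tested probes were, and 1 was lower, where 1.5% of all tested probes were (2.54% in either direction). Efnb1 was lower with SU5402 than with chlorate (-0.43 ± 0.09 SE; limma with Benjamini-Hochberg, adjusted p = 0.0218), and Epha2 was higher (0.39 ± 0.08; adjusted p = 0.0225). Within array sets A and B the difference was -0.33 and -0.47 for Efnb1 and 0.37 and 0.33 for Epha2, but neither passed within a set or when only these 2 groups were fitted. The Efnb1 call was lost without chlorate replicate 1 (-0.43, adjusted p = 0.0712), chlorate replicate 2 (-0.38, adjusted p = 0.0892), SU5402 replicate 2 (-0.38, adjusted p = 0.0937) or SU5402 replicate 3 (-0.44, adjusted p = 0.0622; limma with Benjamini-Hochberg). The Epha2 call was lost without chlorate replicate 1 (0.31, adjusted p = 0.0791) or SU5402 replicate 2 (0.33, adjusted p = 0.0965; limma with Benjamini-Hochberg).

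The remaining SU5402 to chlorate differences were not called. On the brightest Epha1 probe the difference was 0.20 (95% interval 0.03 to 0.37; limma with Benjamini-Hochberg, adjusted p = 0.224). It was 0.00 for Ephb4 (-0.23 to 0.23; adjusted p = 0.997), -0.22 and -0.14 for the Efna4 probes (-0.41 to -0.04 and -0.30 to 0.02; adjusted p = 0.212 and 0.363), and -0.06 for Efnb2 (-0.32 to 0.19; adjusted p = 0.842). These intervals do not show that the 2 inhibitors act alike.

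Between Ndst1/2-/- cells and chlorate 4 of the 9 probes were higher in the mutant, where 29% of all tested probes were, and 4 were lower, where 29.3% were (58.3% in either direction). Between Ndst1/2-/- cells and SU5402 3 were higher, where 28.4% of all tested probes were, and 4 lower, where 29.5% were (57.9% in either direction). Efna4 and Ephb4 were higher and Epha1, Efnb1 and Efnb2 lower in Ndst1/2-/- cells than with either inhibitor, while Epha2 was higher only against chlorate by the tests above. The Ndst1/2-/- to SU5402 and Ndst1/2-/- to chlorate comparisons share the mutant cultures.

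On the brightest probe of each gene the members' ranges between the lowest and highest group mean were at least 2.72 log2 units for Epha1, by the bound above for its undetected Ndst1/2-/- level, 1.78 for Efnb1, 0.89 for Epha2, 0.84 for Efna4, 0.59 for Ephb4 and 0.58 for Efnb2. The other Efna4 probe ranged over 1.06, above Epha2, so their order depends on the probe. Patterns were searched for the 3 genes widest on the brightest probe. By the root mean square difference of centred log2 levels over the 12 cultures, the genes closest in pattern to Epha1 were Wt1 (0.25) and Ct55 (0.44), where the median probe differed by 1.26. Those closest to Efnb1 were Sct (0.12) and Crxos (0.15), against a median of 0.71. Those closest to Epha2 were Piwil2 (0.10) and Bnc2 (0.11), against a median of 0.38. The Epha1 pattern includes the Ndst1/2-/- cultures, where its level was not above background.

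Some neighbours in gene order, taken from the reference annotation after the members' values were known, also changed. Of all tested probes 28.4% were called with chlorate, 23.5% with SU5402 and 62.7% in Ndst1/2-/- cells. A called neighbour is therefore no result about its member. Zyx, the gene next to Epha1 on chromosome 6, encodes the focal adhesion protein zyxin and fell with chlorate (-0.57 ± 0.06 SE; limma with Benjamini-Hochberg, adjusted p = 2.49e-05), with SU5402 (-0.50 ± 0.06; adjusted p = 0.000101) and in Ndst1/2-/- cells (-1.76 ± 0.06; adjusted p = 1.29e-10). Stard8, a gene next to Efnb1 on the X chromosome, rose by 0.88 ± 0.06 with chlorate (SE; limma with Benjamini-Hochberg, adjusted p = 2.05e-07), by 0.59 ± 0.06 with SU5402 (adjusted p = 1.00e-05) and by 2.54 ± 0.06 in Ndst1/2-/- cells (adjusted p = 2.57e-12). In the mutant it thus moved opposite to Efnb1, which fell. Arhgef19, the gene before Epha2 on chromosome 4, rose with chlorate (0.65 ± 0.15 SE; limma with Benjamini-Hochberg, adjusted p = 0.00721) and in Ndst1/2-/- cells (0.49 ± 0.15; adjusted p = 0.0145), where Epha2 fell, and was not called with SU5402 (0.43; adjusted p = 0.0620). Arglu1, next to Efnb2 on chromosome 8, rose by 0.55 ± 0.06 in Ndst1/2-/- cells (SE; limma with Benjamini-Hochberg, adjusted p = 3.13e-06) and was not called with chlorate (0.09) or SU5402 (0.05). Pja1, the ubiquitin ligase gene on the other side of Efnb1, fell by 0.51 ± 0.05 in Ndst1/2-/- cells (SE; limma with Benjamini-Hochberg, adjusted p = 3.87e-06). Adam15, a metalloprotease gene next to Efna4 on chromosome 3, was not called, at 0.14 with chlorate, 0.04 with SU5402 and 0.01 in Ndst1/2-/- cells (limma with Benjamini-Hochberg, adjusted p = 0.229, 0.752 and 0.932). On its other side Efna4 is followed by Efna3 and Efna1, which were both too dim to test. Slc12a9 and Zan, on either side of Ephb4, were not called against untreated cells under any condition. Slc4a3 next to Epha4 and Slc50a1 next to Efna1 were called only in Ndst1/2-/- cells. They rose there by 0.25 and 0.24 (adjusted p = 0.00280 and 0.0257 by limma with Benjamini-Hochberg).

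Beyond the members, 54 symbols of the wider pathway were listed, 50 had a probe and 33 were tested. With chlorate 6 rose, 3 fell and 24 were not called, where 28.4% of all tested probes were called. With SU5402 3 rose, 2 fell and 28 were not called, where 23.5% of all were called. In Ndst1/2-/- cells 8 rose, 8 fell and 17 were not called, where 62.7% of all were called. The median log2 fold change of the 33 was 0.03 with chlorate, 0.03 with SU5402 and -0.02 in Ndst1/2-/- cells, against -0.01, -0.01 and 0.00 over all tested probes.

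Of 8 other Eph receptors only Epha7 and Epha8 were bright enough to test, and of 4 other ephrins Efna5 and Efnb3. Epha7 was detected on 3 of 4 untreated arrays, 1 SU5402 array and no chlorate or Ndst1/2-/- array, and averaged 4.73 log2 units with chlorate, 5.00 with SU5402, 4.59 in Ndst1/2-/- cells and 5.24 in untreated cells. It passed the filter only with the untreated and SU5402 groups together, so its place among the genes that fell with chlorate and in Ndst1/2-/- cells carries no weight. Epha8 passed only through the chlorate group and was not called against untreated cells under any condition. Efna5, a lipid-anchored ephrin, averaged 6.41 log2 units in Ndst1/2-/- cells against 7.12 in untreated cells and fell by 0.71 ± 0.06 (SE; limma with Benjamini-Hochberg, adjusted p = 6.90e-07). The transmembrane ephrin gene Efnb3 was not called against untreated cells under any condition (-0.32 with chlorate, -0.30 with SU5402 and 0.04 in Ndst1/2-/- cells).

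Of 17 tested genes of receptor-side signalling 5 rose and 1 fell with chlorate, 3 rose and 1 fell with SU5402, and 6 rose and 5 fell in Ndst1/2-/- cells, beside the same 28.4%, 23.5% and 62.7% of all tested probes called. One of those 6 is the kinase gene Abl1, which passed the filter only through the Ndst1/2-/- group. Tiam1, a Rac exchange factor, rose by 0.66 ± 0.06 log2 units with chlorate (SE; limma with Benjamini-Hochberg, adjusted p = 4.76e-06), by 0.32 ± 0.06 with SU5402 (adjusted p = 0.00228) and by 0.45 ± 0.06 in Ndst1/2-/- cells (adjusted p = 2.64e-05). Grb7, an SH2 adaptor, averaged 10.57 with chlorate, 10.42 with SU5402, 9.13 in Ndst1/2-/- cells and 10.81 in untreated cells. It fell with chlorate (-0.24 ± 0.07 SE; limma with Benjamini-Hochberg, adjusted p = 0.0159), with SU5402 (-0.39 ± 0.07; adjusted p = 0.000932) and 3.22-fold in Ndst1/2-/- cells (-1.69 ± 0.07; adjusted p = 2.92e-10). Its chlorate call was lost without untreated replicate 3 (-0.22, adjusted p = 0.0545) or chlorate replicate 3 (-0.23, adjusted p = 0.0532; limma with Benjamini-Hochberg). The kinase gene Src rose by 0.43 ± 0.05 in Ndst1/2-/- cells (SE; limma with Benjamini-Hochberg, adjusted p = 1.81e-05) and was not called with chlorate (-0.12, adjusted p = 0.128) or SU5402 (0.02, adjusted p = 0.791). Inppl1, whose product SHIP2 binds EphA2, rose by 0.29 ± 0.06 with chlorate (SE; limma with Benjamini-Hochberg, adjusted p = 0.00205), by 0.20 ± 0.06 with SU5402 (adjusted p = 0.0194) and by 0.43 ± 0.06 in Ndst1/2-/- cells (adjusted p = 2.30e-05). The SU5402 call was lost without untreated replicate 1 (0.16, adjusted p = 0.0744) or SU5402 replicate 2 (0.18, adjusted p = 0.0721; limma with Benjamini-Hochberg). Vav3 rose with chlorate (0.36 ± 0.11 SE, adjusted p = 0.0247) and fell in Ndst1/2-/- cells (-0.44 ± 0.11, adjusted p = 0.00342, both by limma with Benjamini-Hochberg). Its chlorate call was lost under 8 of 25 alternatives, and it was not called with SU5402 (0.24). Nck1 fell in Ndst1/2-/- cells (-0.42 ± 0.08 SE, adjusted p = 0.000679 by the same test).

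On the ephrin side 6 genes were tested, and Pick1, a PDZ protein that binds ephrin-B tails, fell by 0.42 ± 0.07 log2 units in Ndst1/2-/- cells (SE; limma with Benjamini-Hochberg, adjusted p = 0.000128). Sdcbp, the PDZ protein syntenin, was not called, at 0.06 with chlorate, 0.04 with SU5402 and -0.01 in Ndst1/2-/- cells. Among 6 tested genes of receptor and ephrin cleavage, Mmp14, a membrane protease that cuts EphA2, fell with chlorate (-0.43 ± 0.06 SE; limma with Benjamini-Hochberg, adjusted p = 0.000295) and with SU5402 (-0.43 ± 0.06; adjusted p = 0.000445). In Ndst1/2-/- cells its difference was -0.02 (limma with Benjamini-Hochberg, adjusted p = 0.769). Ncstn, the nicastrin subunit of gamma-secretase, rose by 0.33 ± 0.07 in Ndst1/2-/- cells (SE; limma with Benjamini-Hochberg, adjusted p = 0.00109).

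**Figure D4:**
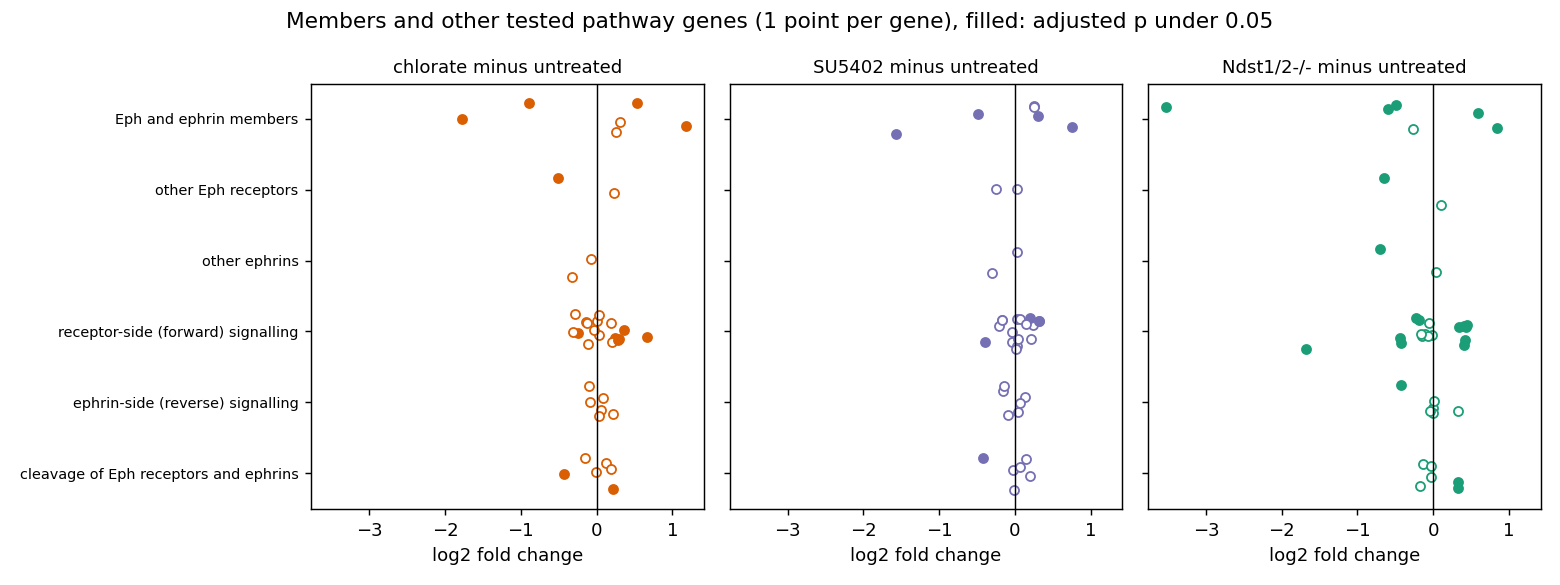
Log2 fold change against untreated wild-type cells for the 6 tested Eph and ephrin members and 33 other tested pathway genes, 1 point per gene from its brightest probe, in panels for chlorate, SU5402 and Ndst1/2-/- cells. Filled points passed an adjusted p under 0.05. Epha1 and Grb7 are the points farthest left in the Ndst1/2-/- panel, where the Epha1 level was not above background.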

How the data were processed

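RNA was amplified from 500 ng per sample and measured on Illumina mouse bead arrays, per the labels' protocols. The authors deposited raw bead intensity for every probe, averaged over its beads, and a detection p-value beside it. Per the submitters' processing notes BeadStudio was the export tool, in a version not named in the sources used here. Their deposited table of processed intensity has no stated normalization and 53.11% of its values at 20, its lowest value. It ranked probes most like the matching array for all 16 arrays and served as an alternative only.

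Intensities were background-corrected from the detection p-values with the normal-exponential model of limma 3.58.1 (R 4.3.3), an added offset of 16, quantile scaling between arrays and a log2 step. The 2 arrays of culture 3 were averaged. Their spread per array, the SD of their difference divided by the square root of 2, was 0.125 to 0.135 log2 units. For arrays of different cultures of a group it was 0.120 to 0.151. The spread behind each SE and p-value is therefore largely that between arrays. One linear model of the 4 groups was fitted to 12 cultures and 13377 probes (8 residual and 4.37 prior degrees of freedom), and the Benjamini-Hochberg adjustment ran over all tested probes within each comparison. A change was called at an adjusted p under 0.05. The offset understates fold changes of weak probes. The number of arrays limits the precision.

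The 2 brightness sets of arrays are balanced over the groups. Replicate numbers were not taken to pair the cultures: the 18 correlations of same-numbered deviations ran from -0.01 to 0.19. Some structure by number is present, as own numbers correlated best in 25 of 36 pairings. Replicate 1 was always in array set A and replicate 2 in set B. The fit with the number as a block is given at the end. Of the 25697 probes 23978 had 1 gene symbol and 1719 had none. All member probes are described, and a gene is represented by its brightest probe. Of each other list up to 4 called genes and 2 uncalled ones could be named, and more called genes were named for receptor-side signalling. The members and lists were chosen with earlier results of these data known. Alternatives covered background, offset, scaling, filter, duplicate arrays, array sets, samples in the fit, variance prior, replicate block, the authors' table and each culture left out.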

Additional observations from a re-analysis of the deposited data

Results flagged for a closer look

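The direct comparison of SU5402 with chlorate called 2 members whose changes against untreated cells ran the same way. The Efnb1 call was lost under 9 of 26 alternatives and the Epha2 call under 5. Neither passed within an array set or when only the 2 groups were fitted. Epha2 was 0.394 log2 units higher with SU5402 than with chlorate, and its fall against untreated cells was 0.49 with SU5402 and 0.89 with chlorate. Efnb1 was lower with SU5402 than with chlorate, with a difference of -0.432, and its rise against untreated cells was 0.75 with SU5402 and 1.18 with chlorate. Each inhibitor was used at 1 dose, so the sizes do not rank the inhibitors. The Epha1 probe ILMN_2749705 took no part in the tests and was detected on 3 of 4 untreated arrays and on 0 of 4 arrays of each other group.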

How the results depend on the processing

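Over 26 alternatives the tested Eph and ephrin probes gave 1380 values, of which 1328 kept their direction and their side of the threshold, 34 lost a call, 18 gained one and 0 of the called ones turned direction (limma with Benjamini-Hochberg). Of the gained calls 8 were Efnb2 with chlorate and 7 were Efnb2 in Ndst1/2-/- cells. Among the receptor-side genes Ptpn11, not named above, turned between Ndst1/2-/- cells and chlorate, at -0.15 with the main settings and 0.016 with median scaling. It was called lower in Ndst1/2-/- cells than in untreated cells (-0.18, adjusted p = 0.0167 by limma with Benjamini-Hochberg). The comparison of SU5402 with chlorate depended most on the settings. Its 1 higher and 1 lower member probe became 0 and 0 in array set A alone, in set B alone and when only the 2 groups were fitted, and the lower count was also 0 with median scaling and with the authors' values, while at an unadjusted p under 0.05 1 to 3 probes were higher or lower in each of these settings; leaving out single cultures gave 0 to 1 higher and 0 to 1 lower. Over all probes that comparison gave 139 higher and 201 lower calls, against 5 and 16 in set A, 3 and 3 in set B, 39 and 80 with 2 groups, 64 to 87 and 88 to 123 without single chlorate or SU5402 cultures, 228 higher with a robust variance trend, 211 and 306 with the array set as a block (chosen after seeing the data), and 98 lower with median scaling. Requiring detection in all 12 cultures removed the 3 Epha1 probes and Ephb4 by construction and left 1 lower member probe with chlorate, 1 with SU5402, 2 in Ndst1/2-/- cells, 2 and 2 in Ndst1/2-/- cells against chlorate and SU5402, and 5 by the F-test. In set A alone 1 member probe rose with SU5402, and Efna4 lost both its SU5402 calls (0.38 and 0.36, adjusted p = 0.109 and 0.0834). Sets A and B alone called 1223 and 1122 probes higher and 1037 and 1024 lower with chlorate, and 844 and 816 higher and 691 and 693 lower with SU5402, against 1904, 1899, 1597 and 1548 in all arrays. Of other pathway genes 3 rose with chlorate under median scaling, 3 in set A and 1 in set B, against 6 as reported, and with SU5402 0 rose in set A (7 at an unadjusted p under 0.05) and 5 without background correction, with 16 arrays, with a robust trend or with the array set as a block, against 3, while 4 fell with the replicate block, against 2. With median scaling 37.7% of the chlorate calls against untreated cells were higher, against 50.1%, and 60% of the Ndst1/2-/- calls against chlorate, against 49.8%. The causes of these differences were not tested, beyond the fewer probes or arrays that a setting leaves.

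With the replicate number as a block Efnb2 was called with chlorate (0.31, adjusted p = 0.0250) and in Ndst1/2-/- cells (-0.27, adjusted p = 0.0230; limma with Benjamini-Hochberg), which made 4 member probes higher with chlorate and 6 lower in Ndst1/2-/- cells, and no other member call changed. A culture correlated best with its own number in 25 of 36 pairings of a culture with another group, which holds 3 cultures. Signal over background limits Epha4, Ephb3, Efna1 and the Ndst1/2-/- level of Epha1.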
